A study of Petromyzon marinus with 6 samples.

Results

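Head-to-head loci are neighbours whose transcripts start close together and run in opposite directions. They were taken here as pairs on 1 contig in which the end of a minus-strand locus lay 1 to 1000 bp before the start of a plus-strand locus, with no overlap of their spans and a mean raw count of at least 50 at each locus over the 6 samples. Loci that the study lists as changed by GABA or baclofen were left out, and none of them would have belonged to such a pair. This gave 330 divergent pairs with 659 loci, out of 15048 loci that reached the count minimum and 57134 in the table. All 659 loci passed the filter on low counts. The loci were chosen by position and by mean raw count, which are described here without a test. The response to GABA entered the choice through the study's lists only. With the listed loci kept, the divergent pairs were the same in number, while the comparison classes held 254 convergent and 1212 same-strand pairs in place of 252 and 1203. The co-variation of neighbours was not used.

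The samples were brainstems of larval sea lampreys (Petromyzon marinus) of 5 to 7 years, and every animal had a complete spinal cord transection. GABA treated larvae were kept in water with 0.5 mM γ-aminobutyric acid and control larvae in water without it, with 3 samples in each group and 4 pooled brainstems of different animals in each sample, so that p-values measure the spread between such pools. The study's methods give 29 days after the lesion and the series text gives 9. No uninjured group was included, so that both groups share the lesion. Poly(A) RNA was sequenced in stranded, paired-end libraries, and the deposited values are raw fragment counts per assembled locus.

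In a head-to-head pair the assembled starts of both loci face each other across the gap. Whether the gaps hold shared promoters was not tested. In mammals bidirectional promoters between such genes are common, are often rich in CpG, and often serve genes that most cells use. The RNA polymerase at many promoters also starts transcription backwards, giving short upstream RNAs that are mostly degraded. In a convergent pair the transcript ends face each other, and in a same-strand pair the loci follow each other. The loci carry no gene names in the deposited table and none of their identifiers occur in the RefSeq gene table, so that pairs are given by contig and position in Pmar_germline 1.0 and the roles of the members are not known here.

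Total counts were 13266414 to 14666153 in the GABA samples and 12261374 to 14248306 in the control samples. Markers of neurons, glia and leukocytes were taken from the loci that the study lists as changed by GABA or baclofen. A difference between the groups at these markers can therefore follow from that choice. The markers were present in every sample. Complexin-1 (CPLX1), a presynaptic protein, was at 824 to 1010 CPM (counts scaled to a common library total). Vimentin (VIM), a filament protein of glia in mammals, was at 493 to 763 CPM. VIM was at 493 to 600 CPM in the GABA samples and 592 to 763 CPM in the control samples, while SoxE1, the other glial marker, was at 42.2 to 45.7 and 38.1 to 46.4 CPM, and their sum at 538 to 643 and 638 to 809 CPM. The summed level of 5 neuronal markers was 1302 to 1568 CPM in the GABA samples and 1359 to 1537 CPM in the control samples, within which GABRA5, a GABA receptor subunit, was at 89.7 to 105 and 49.9 to 80.3 CPM, and CARTPT, a neuropeptide precursor, at 315 to 377 and 391 to 432 CPM. The sum of 4 leukocyte markers was 34.1 to 45.2 CPM in the GABA samples and 30.8 to 54.6 CPM in the control samples. None of the 11 was at 0, the lowest being MAP6, a microtubule protein of neurons, at 0.163 to 0.478 CPM. The part of these markers in the results was not tested. In bulk tissue, fewer cells of a type and less RNA per cell cannot be told apart.

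The divergent pairs crowded at short gaps. There were 69 with a gap of 1 to 100 bp, 86 at 101 to 250 bp, 89 at 251 to 500 bp and 86 at 501 to 1000 bp. Per 100 bp of gap this was 69, 57.3, 35.6 and 17.2 pairs, and beyond the limit, at 1001 to 2000 bp, it was 14.6. The density of divergent pairs thus fell with distance inside the limit and by little beyond it. Convergent pairs had 40.0, 23.3, 25.2 and 22.8 pairs per 100 bp over the same ranges and 19.0 beyond the limit. Same-strand pairs were the most frequent in each of these ranges and stood at 380 pairs in the first 100 bp. The median gap was 284 bp in the 330 divergent pairs, against 467 bp in 252 convergent and 267 bp in 1203 same-strand pairs. Start and end positions are those of loci assembled from these reads, so that a gap measures where assembled transcripts begin and not mapped start sites. A further 193 pairs of a minus and a plus locus overlapped head to head by 1 to 1000 bp and were left out by the rule.

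**Figure D1:**
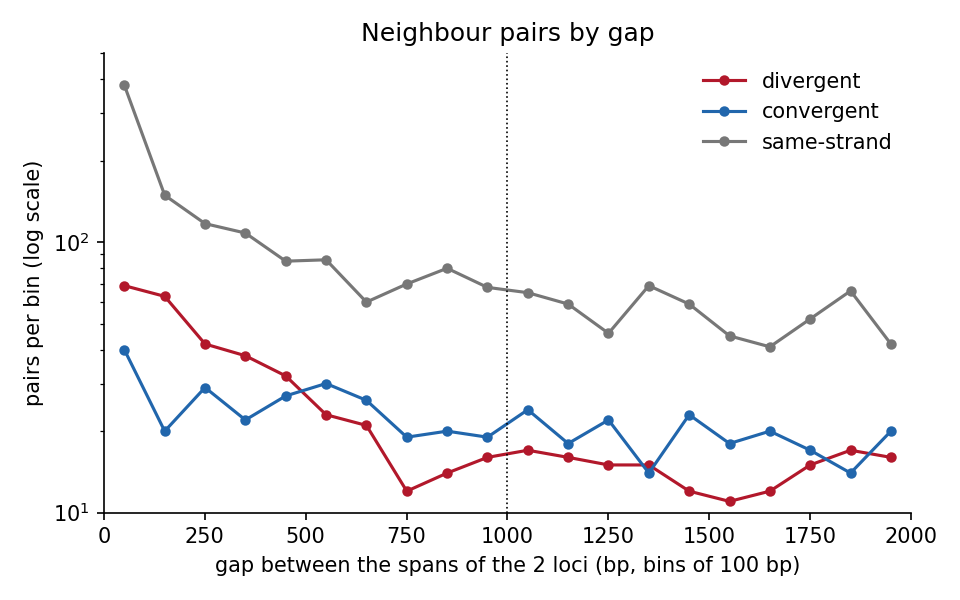
Number of neighbour pairs (y axis, log scale) against the gap between the spans of the 2 loci (x axis, bp, bins of 100 bp) for divergent, convergent and same-strand pairs with a mean raw count of at least 50 at each locus. The dotted line is the 1000 bp limit, and divergent pairs fall from 69 in the first bin to 16 in the last bin inside it.

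The divergent loci were mostly multi-exonic. In 309 of the 330 pairs (93.6%) both loci had at least 2 exon blocks, against 81.3% of convergent and 57.8% of same-strand pairs. Of the 659 loci, 27 (4.10%) had a single exon block, against 13.4% of all loci over the count minimum. The median divergent locus had 8 exon blocks, 4013 bp of exon and a span of 14479 bp, where the medians over all loci that reached the count minimum were 7 blocks, 4211 bp and 15745.5 bp. The pairs lay on 99 contigs, with 14 on the contig that held most (PIZI01000003.1), and 1 locus belonged to 2 pairs. Of the 659 loci, 8 were among the 300 most abundant of the table, and 25 had a span over 200 kb. At 207 of the 330 pairs (62.7%) another assembled locus lay in or over the gap, against 63.1% of convergent and 67.4% of same-strand pairs. Such a locus itself reached the count minimum at 136 of 330 divergent, 102 of 252 convergent and 461 of 1203 same-strand pairs.

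The shortest gap of a pair was 4 bp, on contig PIZI01000009.1, between a minus-strand locus from 9010542 to 9019109 with 6 exon blocks and a plus-strand locus from 9019113 to 9105694 with 82. These loci stood at nearly the same level, 93.3 and 86.3 normalized counts per kb of exon. Gaps of 5 bp occurred on contig PIZI01000003.1, between 33829 to 50269 and 50274 to 61786, and on contig PIZI01000041.1, between 4541750 to 4548004 and 4548009 to 4555111. At the other end of the rule, the widest gaps were 997 and 987 bp, and the nearest divergent pairs outside had gaps of 1004 and 1010 bp. The least abundant members had mean raw counts of 50.2 and 50.8, and the nearest pairs outside had a locus at 48.3 and 48.0.

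The partners of a divergent pair did not share a level. Levels were counts scaled by edgeR's TMM method (library factors of 0.885 to 1.10) and divided by exon length. The median pair differed 2.85-fold between its loci, with quartiles of 0.76 and 2.50 for the absolute log2 ratio. Levels lay within 2-fold of each other in 118 pairs (35.8%) and over 10-fold apart in 40 (12.1%). Across the 330 pairs, the Spearman correlation of the level of the plus with that of the minus locus was −0.01. Convergent pairs resembled them, with a median of 2.50-fold and a correlation of −0.03 over 252 pairs. Same-strand neighbours were closer, with a median of 1.90-fold, 53.2% within 2-fold and a correlation of 0.39 over 1203 pairs. In pairs whose loci both had at least 2 exon blocks, the median was 2.03-fold in 695 same-strand pairs. It was 2.86-fold in 309 such divergent pairs and 2.75-fold in 205 such convergent pairs. By distance, the median of all divergent pairs was 3.34-fold at 1 to 100 bp and 2.97-fold at 101 to 250 bp. It was 2.55-fold at 251 to 500 bp and 2.62-fold at 501 to 1000 bp. At gaps of 5001 to 20000 bp the medians were 2.62-fold in divergent, 2.54-fold in convergent and 2.58-fold in same-strand pairs. Whether assembled neighbours are separate genes was not tested. All pairs share the 6 libraries, and the differences between the classes are descriptions that were not tested. Neither strand was favoured, as the plus locus had the higher level in 161 of the 330 divergent pairs. In single samples the median absolute log2 ratio was between 1.41 and 1.56.

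**Figure D2:**
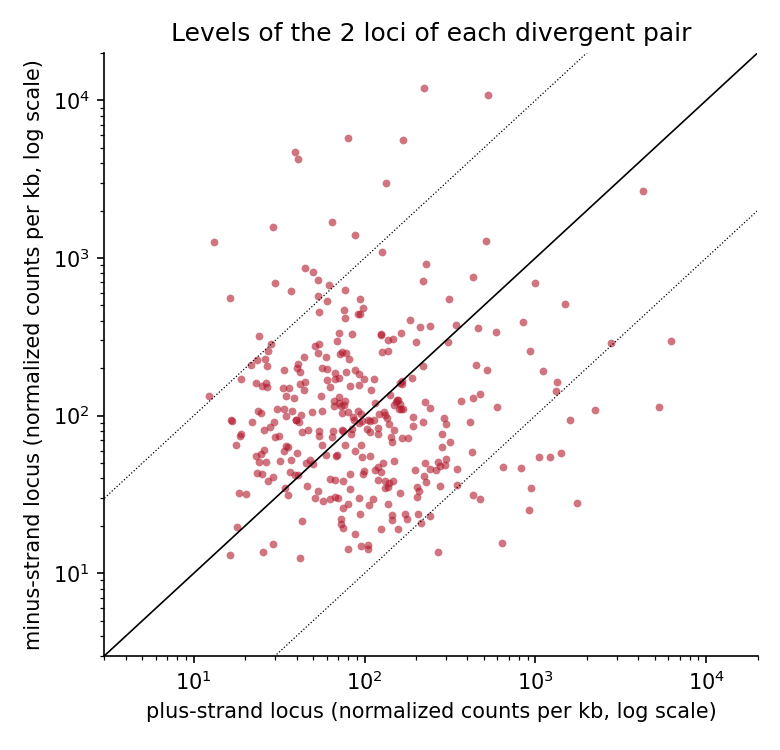
Level of the minus-strand locus (y axis) against that of the plus-strand locus (x axis) in each of the 330 divergent pairs, in normalized counts per kb of exon on log scales, as means over 6 samples. The solid line marks equal levels and the dotted lines a 10-fold difference, and 40 pairs lie beyond the dotted lines.

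The 3 widest differences were 120-fold, 105-fold and 95.9-fold. On contig PIZI01000017.1, with a gap of 92 bp, a minus-strand locus of 827 bp of exon (202376 to 209424) had 4724 normalized counts per kb beside 39.4 at the plus-strand locus (209516 to 225138). On contig PIZI01000011.1, a minus-strand locus of 599 bp (13597248 to 13602773) had 4261 normalized counts per kb and its partner, a locus from 13603387 to 14484167, 40.5. The third pair lay on contig PIZI01000042.1 with a gap of 65 bp, with 1260 normalized counts per kb on the minus strand and 13.1 on the plus strand. In each of these 3 pairs the minus-strand locus was the higher one and the lower locus began less than 1 kb away. The folds depend partly on exon length, which was 9429, 1283 and 11925 bp at the lower loci. The higher locus of the third pair had 2542 bp of exon. Mean raw counts were 3908 and 372.5, 2546 and 52.0, and 3210 and 157.5. The lower locus of the second pair was thus near the count minimum, and 4 other assembled loci lay in or over its gap. The 3 closest pairs differed 1.01-fold, 1.01-fold and 1.02-fold and lay on contigs PIZI01000003.1 (gap 454 bp), PIZI01000155.1 (94 bp) and PIZI01000001.1 (252 bp). Their levels were 160 to 162, 165 to 167 and 49.0 to 50.1 normalized counts per kb.

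The 5 pairs with the most counts each paired 1 abundant locus with a much less abundant one. On contig PIZI01000003.1 the minus-strand locus from 13498752 to 13502964 had 14770, 13196 and 13589 normalized counts in the GABA samples and 15063, 16058 and 15677 in the control samples. Its partner, from 13503251 to 13513634, had 728, 716 and 771 in the GABA samples and 717, 682 and 772 in the control samples. The abundant locus was lower in all GABA samples than in any control sample, while its partner overlapped between the groups. On contig PIZI01000013.1 the minus-strand locus from 467745 to 475762 had 13655, 12542 and 12902 in the GABA samples and 14596, 15335 and 14954 in the control samples. On contig PIZI01000016.1 the plus-strand locus from 8275964 to 8283326 had 14320, 12786 and 12996 in the GABA samples and 12445, 12174 and 14021 in the control samples, with overlap. The other 2 pairs lay on contigs PIZI01000058.1 and PIZI01000030.1. The abundant plus-strand locus of the pair on PIZI01000058.1 had 11968, 11234 and 12106 in the GABA samples and 12248, 14506 and 14830 in the control samples. That on PIZI01000030.1 had 9739, 9468 and 9355 in the GABA samples and 9947, 10667 and 10937 in the control samples. The abundant locus was thus lower in every GABA sample than in any control sample in 4 of the 5 pairs, as were 8.17% of all loci that reached the count minimum. The median mean raw count of all those loci was 329.5, far below the 5 abundant loci, so that this share is not matched to them in abundance. In edgeR's quasi-likelihood test the 5 abundant loci had log2 fold changes of −0.17, −0.20, 0.05, −0.24 and −0.14, with adjusted p between 0.729 and 0.924.

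The divergent loci together held 4.02%, 3.84% and 3.86% of the counts in the GABA samples and 3.91%, 3.97% and 4.05% in the control samples. The groups overlapped, and the difference of −0.07 percentage points between means of 3.90 ± 0.10% and 3.97 ± 0.07% (SD, n = 3 each) was smaller than their spread (two-sided exact permutation test, p = 0.4, where 0.1 is the smallest p that 3 against 3 samples allow). The most abundant divergent locus held 2.78% of these counts.

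The question put to each locus was whether GABA changed its level. edgeR's quasi-likelihood test called 0 of the 659 divergent loci at a Benjamini-Hochberg adjusted p under 0.05, as it called 0.0% of the 24300 loci tested, and the smallest adjusted p of a divergent locus was 0.504. DESeq2 also called 0 of them. With its default settings, adjusted p were given for 292 of these loci, 0.384% of all loci with one were called, and 39 divergent loci (5.92%) had an unadjusted p under 0.05, beside 5.57% of the loci that reached the count minimum. Without independent filtering 0.013% of all loci were called. edgeR without the filter on low counts called 1 (0.107% of all loci). In edgeR, 46 divergent loci (6.98%) had an unadjusted p under 0.05, beside 6.55% of all loci tested and 7.26% of the 15046 tested loci that reached the count minimum. The share of the divergent loci is near this background. With GABA replicate 1 left out the count was 78 (11.8%, background 10.3% at that abundance) and with control replicate 1 left out 77 (11.7%, background 8.96%). It was 30 (4.55%, background 5.67%) when GABA replicate 3 was dropped and 18 (2.73%, background 4.54%) when GABA replicate 2 was. Fold changes were small, with a median absolute log2 change of 0.09 both at the divergent loci and at all loci of that abundance.

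Most fold changes were below 0 with TMM scaling. Of the 659 loci, 414 (62.8%) had a log2 fold change below 0, where 53.8% of loci with a mean count of at least 50 and 48.5% of all loci tested did. At an unadjusted p under 0.05, 38 were lower (5.77%, background 4.62% at that abundance and 3.47% of all loci) and 8 were higher (1.21%, background 2.65% and 3.08%). The lower calls were not above the background in each fit with 1 sample left out. The lower calls were 12 (1.82%, background 2.8%) when GABA replicate 2 was dropped, 23 (3.49%, background 3.53%) for GABA replicate 3 and 20 (3.03%, background 3.97%) for control replicate 3. They were 63 (9.56%, background 5.98%) when GABA replicate 1 was dropped, 66 of 659 loci (background 6.01%) for control replicate 1 and 27 (4.1%, background 3.52%) for control replicate 2. The share of fold changes below 0 was between 55.4% (background 53.2%), when GABA replicate 2 was dropped, and 69.5% (background 56.1%), when GABA replicate 1 was. The median log2 fold change was −0.03, against −0.01 over all loci of that abundance. The side of 0 depended on the scaling, since with library size only the median was 0.01, 46.9% of the divergent loci were below 0 (background 40.2%), and the unadjusted calls were 19 lower (background 2.5%) and 18 higher (background 4.71%). The groups did not overlap at 97 loci (14.7%, background 13.0% at that abundance and 12.3% of all loci). Every GABA sample was below every control sample at 70 of them (10.6%, background 8.17% and 6.37%) and above at 27 (4.10%, background 4.88% and 5.98%). Convergent loci had 56.3% and same-strand loci 45.0% of fold changes below 0. These shares come from the same libraries and were not tested against each other.

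The divergent locus with the smallest p was MSTRG.23764, on the minus strand of contig PIZI01000037.1 from 6400157 to 6411558, with 2 exon blocks. It had 373, 324 and 387 normalized counts in the GABA samples and 228, 218 and 268 in the control samples. The groups did not overlap, and the means of 361 ± 33.4 and 238 ± 26.3 (SD, n = 3 each) gave a log2 fold change of 0.60 with a standard error of 0.11 (edgeR, adjusted p = 0.504). DESeq2 with default settings gave this locus no adjusted p. Over the other alternatives its adjusted p in edgeR or DESeq2 ran from 0.0213 without the filter to 0.941 without GABA replicate 2. It was the divergent locus called without the filter. Over all alternatives its log2 fold change ran from 0.54 to 0.69. Its partner 902 bp away, from 6412460 to 6431230, had 311, 298 and 279 in the GABA samples and 252, 272 and 260 in the control samples. It too stood apart, with a smaller log2 fold change of 0.18 (standard error 0.10). In or over the gap lay 2 other assembled loci.

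The other locus named for a higher level was MSTRG.36133, on the plus strand of contig PIZI01000090.1 from 546226 to 611309, with 1468, 1273 and 1137 normalized counts in the GABA samples and 967, 813 and 1104 in the control samples. edgeR gave a log2 fold change of 0.43 with a standard error of 0.12 (adjusted p = 0.718). The partner, 51 bp away and from 532780 to 546175, had 248, 260 and 245 in the GABA samples and 227, 248 and 249 in the control samples. The plus locus stood apart between the groups by a small margin, and the partner overlapped.

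Among lower loci, MSTRG.2010 had the smallest p. It is the plus-strand locus of the pair with a 5 bp gap on contig PIZI01000003.1, and had 780, 725 and 766 normalized counts in the GABA samples and 864, 999 and 984 in the control samples. edgeR gave a log2 fold change of −0.33 with a standard error of 0.08 (adjusted p = 0.612). The minus-strand partner had 2490, 2237 and 2334 in the GABA samples and 2428, 2556 and 2744 in the control samples, a log2 fold change of −0.13 with overlap. Next came MSTRG.16760, on the minus strand of contig PIZI01000024.1 from 4823780 to 4832690, with 468, 460 and 477 in the GABA samples and 564, 540 and 621 in the control samples. It stood apart with a log2 fold change of −0.30 and a standard error of 0.08 (edgeR, adjusted p = 0.721), while its partner 85 bp away (4832775 to 4867435) averaged 210 ± 27.8 in the GABA samples and 195 ± 17.5 in the control samples (SD, n = 3 each). These 4 loci were picked for their p, and no further test was made of them.

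**Figure D3:**
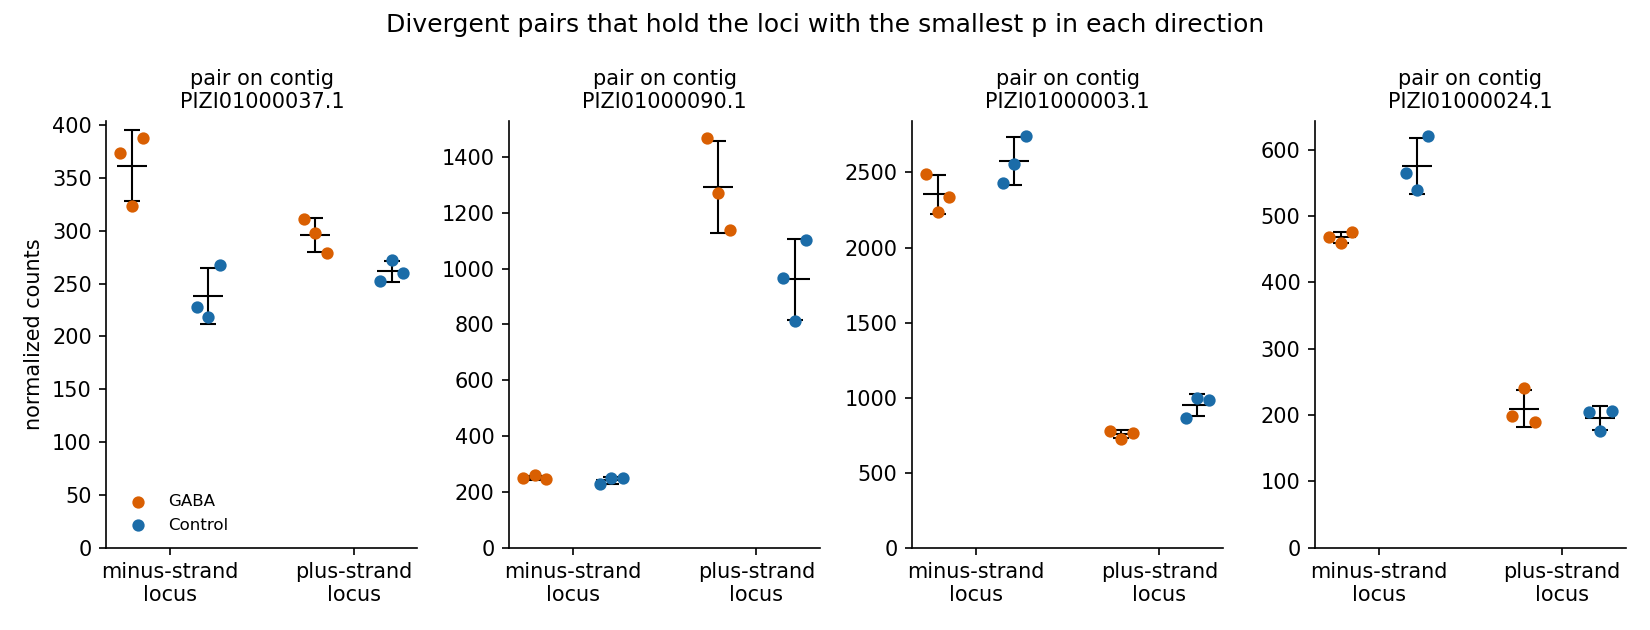
Normalized counts (y axis, from 0) of the minus-strand and plus-strand locus in the 4 divergent pairs that hold the loci with the smallest p in each direction, 2 higher and 2 lower. Points are samples (GABA left, Control right), and bars are means with SD over 3 samples. On contig PIZI01000037.1 both loci are higher in the GABA samples, and in the other pairs 1 locus stands apart and its partner overlaps.

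The fold changes of partners were set side by side. In 134 pairs both loci had a fold change below 0, in 49 both were above, and in 147 the signs were opposite, so that 55.5% of the divergent pairs had the same sign. The share was 57.1% in convergent and 61.5% in same-strand pairs. These counts also depend on the share of single loci below 0. That share was 62.8% of divergent, 56.3% of convergent and 45.0% of same-strand loci. The Spearman correlation of the partners' log2 fold changes was 0.07 across 330 divergent pairs, 0.24 across 252 convergent and 0.36 across 1203 same-strand pairs. At an unadjusted p under 0.05 there were 2 divergent pairs with both loci, each in the same direction, and 42 with 1 locus only. Both loci passed in 0 of 252 convergent and 13 of 1203 same-strand pairs, and 1 locus in 25 and 138. The groups stood apart the same way at both loci of 5 pairs and in opposite ways at 1, against 5 and 0 convergent and 17 and 4 same-strand pairs. The values of neighbours come from the same 6 libraries, and none of these shares was tested.

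**Figure D4:**
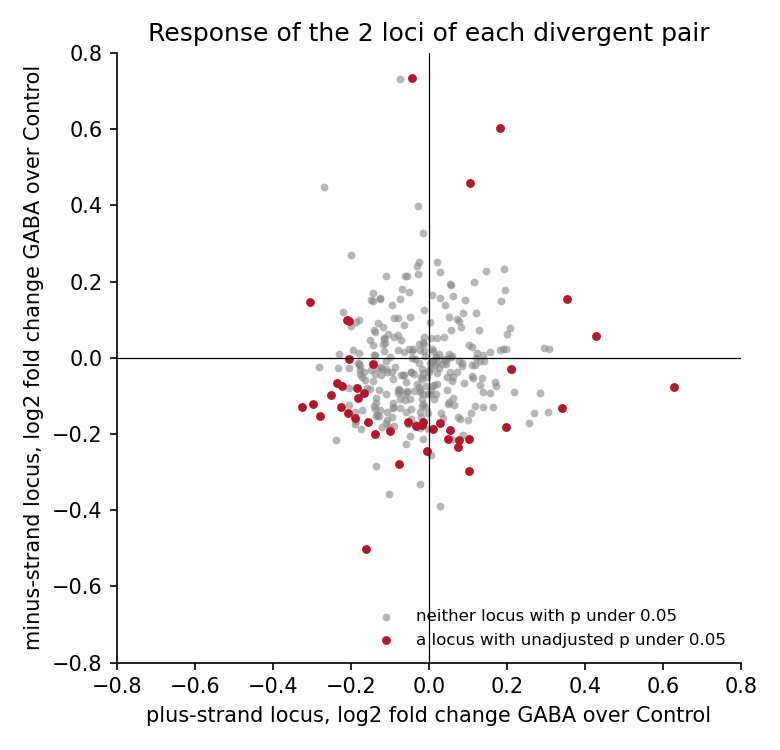
Log2 fold change, GABA over Control, of the minus-strand locus (y axis) against the plus-strand locus (x axis) in the 330 divergent pairs. Red points are pairs in which at least 1 locus had an unadjusted p under 0.05, and the cloud has no slope (Spearman correlation 0.07), with 134 pairs in the lower left and 49 in the upper right.

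Whether 1 locus moved relative to its neighbour was asked of their log2 ratio with limma, fitted over all 1785 neighbour pairs. The ratio was plus over minus in divergent and convergent pairs, and downstream over upstream locus in same-strand pairs. It called 0 of the 330 divergent pairs at an adjusted p under 0.05, as it called 0.0% of all pairs, with 0.761 as the lowest adjusted p. Before adjustment 24 divergent pairs passed 0.05 (7.27%, background 6.05%). The count was 14 (4.24%, background 4.31%) when GABA replicate 2 was dropped, and 31 (9.39%) when GABA replicate 1 (background 7.56%) or control replicate 1 (background 7.0%) was. The median absolute change of the ratio was 0.12 on the log2 scale, below the median standard error of 0.14, and it was 0.09 in convergent and 0.12 in same-strand pairs. The lowest p belonged to the pair on contig PIZI01006878.1 with a gap of 558 bp and 2 other assembled loci in or over it. Its minus-strand locus (2376 to 4008) had 89.9, 99.6 and 108 normalized counts in the GABA samples and 80.4, 43.0 and 54.2 in the control samples. The plus-strand locus (4566 to 8867) had 192, 206 and 184 in the GABA samples and 219, 208 and 172 in the control samples. The minus-strand locus was higher in the GABA samples and its partner overlapped, and the ratio changed by −0.82 (standard error 0.22, adjusted p = 0.761 in limma). The pair of MSTRG.23764 came next, with a change of −0.42 (standard error 0.13).

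The smallest p for a higher ratio was found on contig PIZI01000016.1, where the abundant plus-strand locus stands 272 bp from a minus-strand locus (8268218 to 8275692). That minus-strand locus had 1340, 1235 and 1261 normalized counts in the GABA samples and 1373, 1455 and 1551 in the control samples. The ratio of plus over minus was higher in the GABA samples by 0.24 on the log2 scale (standard error 0.08, adjusted p = 0.761 in limma). In the pair of MSTRG.16760 it was higher by 0.39 (standard error 0.13). None of these changes passed the adjusted threshold.

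The co-variation of neighbours was read from samples of the same group. From the log2 normalized counts of each locus the mean of its group was taken away, and Pearson's r between the partners was computed over the 6 samples. With so few samples a single r says little, and the distribution over pairs is given as a description. The median r was 0.20 in the divergent pairs, with quartiles of −0.22 and 0.60, and 208 of 330 (63.0%) were above 0. In convergent pairs the median was 0.03 with 53.2% above 0, and in same-strand pairs it was 0.37 with 72.7% above 0. An r over 0.8 occurred in 33 of 330 divergent, 16 of 252 convergent and 218 of 1203 same-strand pairs, and an r under −0.8 in 8, 15 and 34 of them. The mean r over every possible pairing of the 15048 loci was 0.0042, and that of the divergent pairs was 0.15. Divergent pairs thus stood between the other classes, and this order of the medians held under every alternative run for them. The order did not hold in the highest range of counts, the longest range of gaps or pairs over 10-fold apart, all given below.

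**Figure D5:**
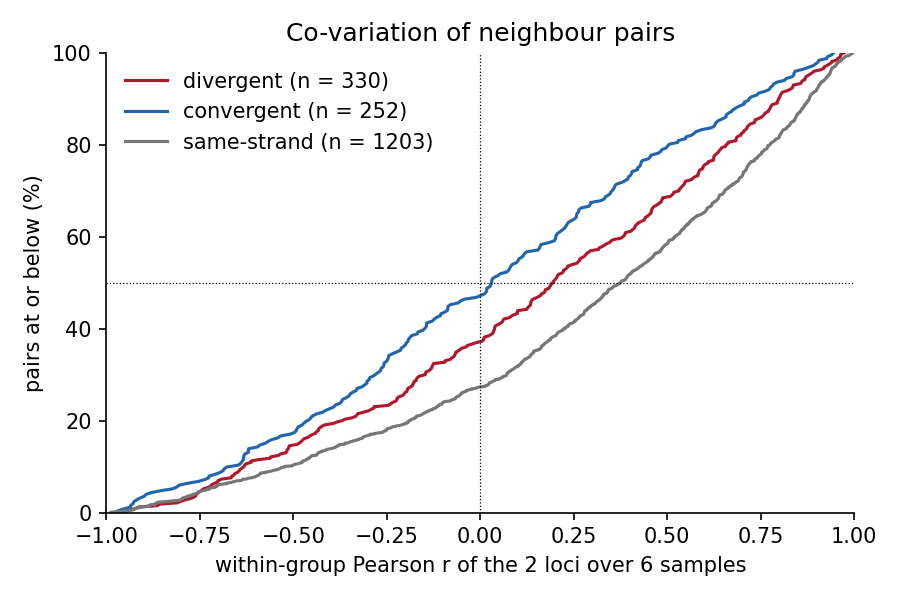
Share of pairs (y axis, %) with a within-group Pearson r over 6 samples at or below the value on the x axis, for divergent (n = 330), convergent (n = 252) and same-strand pairs (n = 1203). The curves cross 50% at 0.20, 0.03 and 0.37.

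Co-variation in divergent pairs was higher where counts were higher. The median r was 0.09 in 170 pairs whose less abundant locus had a mean count of 50 to 200, 0.23 in 134 pairs at 200 to 800 and 0.52 in 26 pairs at 800 or more. Counting noise was taken from single divergent loci, grouped into the same ranges by their own mean count. Its median variance was 63.2%, 37.7% and 20.3% of their median within-group variance. Convergent pairs had medians of 0.00, 0.11 and −0.20 in these ranges, the last from 15 pairs, and same-strand pairs 0.38, 0.35 and 0.45. The difference between the classes in this respect was not tested.

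By distance, the median r of divergent pairs was 0.29 at 1 to 100 bp, 0.23 at 101 to 250 bp, 0.13 at 251 to 500 bp and 0.14 at 501 to 1000 bp. It did not end at the limit of the rule, with 0.17 in 146 divergent pairs at 1001 to 2000 bp, 0.15 in 331 at 2001 to 5000 bp and 0.10 in 1081 at 5001 to 20000 bp. Head-to-head loci that overlapped by up to 1000 bp had a median of 0.16 over 193 pairs, and tail-to-tail loci with such an overlap 0.11 over 259. In convergent pairs the medians at 1 to 100 and 5001 to 20000 bp were 0.03 and 0.13, and in same-strand pairs 0.43 and 0.13, so that the 3 classes had medians of 0.10 to 0.13 at long range. In 123 divergent pairs with no other locus in or over the gap the median was 0.27. The same restriction gave 0.08 in convergent and 0.44 in same-strand pairs. In 309 divergent pairs in which both loci had at least 2 exon blocks the median was 0.20, beside 0.07 in convergent and 0.30 in same-strand pairs. In divergent pairs a difference in level between partners went with no clear change. Their medians were 0.20, 0.18 and 0.24 in pairs under 2-fold, 2-fold to 10-fold and over 10-fold apart. The same ranges gave 0.03, 0.06 and −0.14 in convergent and 0.43, 0.33 and 0.18 in same-strand pairs. The pairs over 10-fold apart were 40 divergent, 33 convergent and 50 same-strand pairs.

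The first principal component of the within-group deviations held 37.7% of their variance and set GABA replicate 1 and control replicate 3 apart from the other samples. With this component taken away, an alternative chosen after seeing the data, the median r was 0.09 in divergent, −0.02 in convergent and 0.29 in same-strand pairs. The scaling also moved the divergent value, to 0.29 with DESeq2's size factors and 0.10 with library size only, and leaving out 1 sample gave 0.13 to 0.28.

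The 3 divergent pairs with the highest r give a view of the values. In the pair with a 5 bp gap on contig PIZI01000041.1 the minus-strand locus had 360, 312 and 340 normalized counts in the GABA samples and 332, 325 and 390 in the control samples, and the plus-strand locus 372, 351 and 367 in the GABA samples and 380, 383 and 425 in the control samples. Within each group, the sample with the most counts of 1 locus also had the most of its partner (r = 0.97 over 6 samples). The next were on contig PIZI01000013.1 with a gap of 568 bp, at 8189540 to 8198254 and 8198822 to 8217149 (r = 0.96), and on contig PIZI01000029.1 with a gap of 107 bp, at 5912742 to 5916700 and 5916807 to 5924742 (r = 0.96). Other assembled loci in or over these gaps numbered 1 and 4. The minus-strand locus on PIZI01000029.1 had 1 exon block and a mean raw count of 59.5, near the count minimum. The lowest r was −0.95, on contig PIZI01000052.1 with a gap of 898 bp. Its minus-strand locus (790084 to 893867) had 98.1, 114 and 107 in the GABA samples and 87.0, 102 and 85.9 in the control samples, and its plus-strand locus (894765 to 910624) 248, 196 and 222 in the GABA samples and 242, 213 and 266 in the control samples. In each group the sample with the most counts of the minus-strand locus had the fewest of the plus-strand locus. The next lowest were −0.93 on contig PIZI01000031.1 (gap 335 bp) and −0.92 on contig PIZI01000015.1 (gap 63 bp). At these 3 pairs of low r, other assembled loci in or over the gap numbered 1, 0 and 2. These pairs were picked for their r out of 330, and the values are given without a test.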

How the data were processed

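Poly(A) RNA of 3 GABA and 3 Control samples was measured. The authors filtered reads by fastp and used STAR in 2-pass mode against Pmar_germline 1.0. Loci were built by StringTie from the alignments, and the deposited values are raw fragment counts per locus from featureCounts, with strand taken into account and both ends required to map. The versions of these tools are not given in the sources used here. No option for counting fragments with several alignments is stated, so that counts of near-identical copies are uncertain. The deposited exon length of each locus was used as it stands. Broken lines of 2 loci were rejoined, and 0 sample columns were left unmatched. Samples were grouped by their titles, and nothing was pooled further.

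Loci passing filterByExpr (24300) were normalized by TMM, and the condition was fitted in R 4.3.3 by the quasi-likelihood test of edgeR 4.0.16, with standard errors taken from the F statistic. Pair ratios were log2 CPM differences (prior count 0.5) tested with limma 3.58.1, with a variance trend on the less abundant locus. Both used Benjamini-Hochberg adjustment and a threshold of 0.05. For r, log2(normalized count + 0.5) was used. DESeq2 1.42.0 and the other alternatives are given in the closing section. Python 3.11.15, pandas 2.3.3, scipy 1.17.1, statsmodels 0.14.6 and matplotlib 3.10.9 were used. The model fits were tested on simulated data. The fits were condition only, and 3 samples a group limit every comparison.

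The members, lists and tests were chosen with earlier results of these data known. Pairs named were those with the most counts (5), the shortest gap (3), the highest and lowest r (3 each), the largest and smallest level ratio (3 each), the smallest p of the ratio test and of the locus test (2 in each direction), and those nearest each limit of the rule (2 on each side). No genome of this build was used here, so no sequence is shown.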

Additional observations from a re-analysis of the deposited data

How the results depend on the processing

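Among the divergent loci, the count at an adjusted p under 0.05 stayed 0 in 9 alternatives with edgeR and in 2 with DESeq2, and was 1 with edgeR without the filter on low counts. At an unadjusted p under 0.05 it ran from 18 to 78 with 1 sample left out. For the pair ratio, the adjusted count stayed 0 in all 9 alternatives and the unadjusted one ran from 14 to 31 with 1 sample left out. The median log2 fold change of the divergent loci was 0.011 with library size only and ran from −0.068 to −0.016 with 1 sample left out. The mean share of counts stayed lower in the GABA group in all 8 alternatives, by 0.033 to 0.127 percentage points with 1 sample left out. The p of the two-sided exact permutation test ran from 0.2 to 0.7 over these alternatives. The median r of divergent pairs was 0.290 with DESeq2's size factors, 0.105 with library size only, 0.266 with no other locus in or over the gap and 0.085 with the first principal component removed, and ran from 0.127 to 0.281 with 1 sample left out. Divergent minus convergent was 0.165, and 0.087 with library size only, 0.079 with the group mean kept and 0.089 with a mean count of at least 20, and ran from 0.121 to 0.277 with 1 sample left out. Divergent minus same-strand was −0.179, and −0.093 with DESeq2's size factors, −0.270 with library size only and −0.104 with at least 2 exon blocks at both loci, and ran from −0.225 to −0.146 with 1 sample left out. The median absolute log2 level ratio was 1.51, and 1.28 with a mean count of at least 100, 1.74 without division by exon length and 1.48 to 1.53 with 1 sample left out. The causes were not tested. A mark of movement here is the standard deviation over the fits with 1 sample left out, or over samples for the level ratio.

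Samples of GABA and Control share only a replicate number. Same-numbered samples had correlations of deviations of −0.19, 0.09 and −0.21 across loci, and samples with different numbers had −0.13 to 0.28. So few values cannot show whether the numbers pair the samples. With the replicate block, edgeR called 0 divergent loci (37 at an unadjusted p under 0.05, 5.61%, background 6.09% at that abundance) and limma 0 ratios. Removing the first principal component and leaving out the most abundant member locus were chosen after seeing the data.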
